A study of Homo sapiens with 10 samples.

Results

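Axon guidance ligands and receptors were followed in 5 groups of human pluripotent cells and their derivatives. The genes were chosen by symbol, as semaphorins of classes 3 to 7, plexins, neuropilins, ephrins, EPH receptors, SLITs, ROBOs, netrins and UNC5 receptors. That choice was made with earlier results of these data known. The symbols gave 68 genes, 35 ligands and 33 receptors, of the 27492 symbols in the tables. The study asked how crotonate, a precursor of the crotonyl-CoA used to modify lysines of histones and other proteins, acts on pluripotent cells, and bulk mRNA was sequenced in each group. All groups derive from a single established human embryonic stem cell (hESC) line, H9, which is labelled wild type and carries GFP driven by LTR7, the long terminal repeat from which the endogenous retrovirus HERVH is transcribed. Primed hESCs were grown in mTeSR on Matrigel, either with 10 mM crotonate (Cr) for 12 days or untreated. Endodermal cells were derived from the reporter line with BMP4 and Activin A, after a start with the GSK3 inhibitor CHIR99021. Extended pluripotent stem (hEPS) cells were obtained from it in LCDM medium on mitomycin-treated mouse feeder cells, which were removed before collection, and were given the same crotonate treatment or left untreated. The labels list 2 samples per group, but the tables hold 1 FPKM value (fragments per kilobase of transcript, scaled to the mapped fragments) per gene and group. Errors between replicates, tests and p-values could thus not be computed, and each difference below stands without a replicate check.

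Guidance cues are read by growing axons, migrating cells and sprouting vessels alike, and the same families act in the early embryo. Semaphorins bind plexins, and the secreted class 3 members mostly do so through the co-receptors neuropilin 1 and 2. Ephrins are held on the cell surface, by a lipid anchor in the A type and by a membrane-spanning stretch in the B type, and signal through EPH receptor kinases in both directions between touching cells. SLIT proteins are ligands of ROBO receptors, and netrins attract through DCC and repel through UNC5 receptors, which also bind FLRT proteins.

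A gene was said to have risen or fallen when FPKM + 1 differed at least 2-fold (1 on the log2 scale) between treated and untreated cells of 1 table and either value reached 1 FPKM. In primed hESCs 58 of the 68 genes were measured by this filter. Of these, 24 rose with crotonate (41.4%), against 13.9% of all 13210 genes measured, and 8 fell (13.8%), against 12.7% of all. The median log2 change was 0.59 over the 58 genes and -0.08 over all measured genes. At least 10 FPKM were reached by 33 of the 68 genes in Cr primed hESCs, by 27 in endodermal cells and by 21 in untreated primed hESCs. The share of all genes at that level was not computed, so these numbers only describe levels. A total of 10 genes were measured only through the treated column and 3 only through the untreated column, so that these had to differ. Of the 45 genes with at least 1 FPKM in both columns, 15 rose and 6 fell, against 10.3% higher and 10.1% lower among all 11498 genes that passed this stricter filter. Of the 35 ligands 12 were called higher, 3 lower and 16 neither, and 4 were below the filter. Of the 33 receptors 12 were called higher, 5 lower and 10 neither, and 6 were below the filter.

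In hEPS cells 67 of the genes were in the table, SEMA3B not being analysed here, and 58 were measured. With crotonate 11 of them rose (19.0%), against 8.42% of all 14161 measured genes, and 2 fell (3.45%), against 3.02% of all. The median log2 change was 0.18 over the 58 genes, against -0.09 over all measured genes. At least 1 FPKM was present in both columns for 56 genes, of which 10 rose and 2 fell, against 6.7% and 2.41% of all genes under that filter, and 2 genes were measured only through the treated column. The calls of both states could be compared for 54 guidance genes measured in each, beside 12111 genes of all kinds. The genes that rose in both states were NRP2, PLXNA2, PLXNA4 and PLXND1, all receptors for semaphorins (4 genes, 7.41%, against 2.98% of all). PLXNA2 and PLXNA4, at 0.411 and 0.858 FPKM in untreated primed hESCs, passed the filter there only through the treated column. PLXNA4, at 0.362 FPKM in untreated hEPS cells, did so in that state too, so these values had to be higher with crotonate. The overlap was not computed for all genes under the stricter filter. EFNB1 and SEMA5B rose in primed hESCs and fell in hEPS cells (3.70%, against 0.363% of all). Another 16 genes rose in primed hESCs without a call in hEPS cells (29.6%, against 9.13% of all), and 5 rose in hEPS cells without a call in primed hESCs (9.26%, against 3.24%). A further 6 genes fell in primed hESCs without a call in hEPS cells (11.1%, against 10.3%), and 21 were called in neither state (38.9%, against 70.6%). SEMA3E and NTN1 also rose in hEPS cells but were below 1 FPKM in both primed columns and so stand outside the 54 genes.

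**Figure D1:**
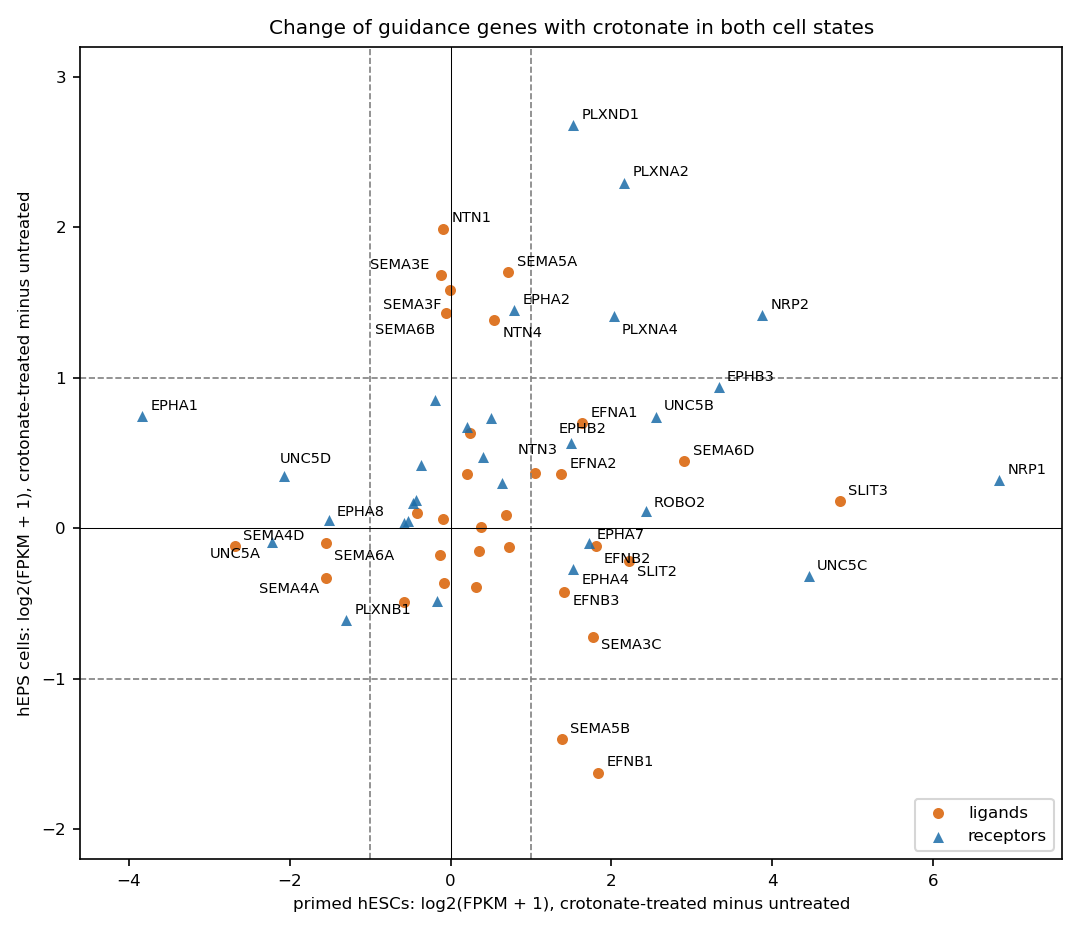
Each point is 1 guidance gene measured in at least one cell state, with its crotonate-treated minus untreated difference of log2(FPKM + 1) in primed hESCs (x axis) and in hEPS cells (y axis). SEMA3B, which rose in primed hESCs and was not analysed in hEPS cells, is not shown. Circles are ligands, triangles are receptors and dashed lines mark the 2-fold threshold; PLXND1, PLXNA2, PLXNA4 and NRP2 lie in the upper right field, and SEMA5B and EFNB1 in the lower right field.

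Markers of other cell types moved in the same comparisons. Of 10 mesoderm and mesenchyme markers, 10, 10 and 1 reached 1 FPKM in Cr primed, endodermal and untreated primed cells, with sums of 3290, 2290 and 21.2 FPKM, and COL3A1 and LUM were listed at 0 in untreated primed cells. Of 7 pluripotency markers, 3, 3 and 6 reached 1 FPKM in the same 3 groups, with sums of 161, 110.0 and 1910 FPKM, and ZFP42 was listed at 0 in Cr primed and endodermal cells. Of 7 definitive endoderm markers 6, 3 and 2 did so, and in the cells labelled endodermal FOXA2 was listed at 0 and SOX17 at 0.0721 FPKM, beside GATA4 at 99.9 FPKM. SOX17 and FOXA2 were also listed at 0 in untreated primed cells. The endodermal column is therefore named by its label only. Of 8 endothelial markers 4, 3 and 2 reached 1 FPKM, with sums of 149, 57.2 and 32.0 FPKM, mostly from KDR and TEK, and EMCN was listed at 0 in Cr primed and untreated primed cells. Of 8 neural progenitor markers 3, 1 and 5 reached 1 FPKM, with sums of 87.4, 131 and 200 FPKM. NES alone gave 79.9, 130 and 61.6 FPKM of these sums, and SOX1 and HES5 were listed at 0 in all 3 groups. Of the 5 neural progenitor markers measured in primed hESCs, 4 were called lower with crotonate and NES was not called. Their median log2 change was -3.95. Of 9 neuron markers 5, 5 and 6 reached 1 FPKM, with sums of 166, 246 and 99.5 FPKM, and ELAVL4 was listed at 0 in all 3 groups. Of the 7 neuron markers measured in primed hESCs, STMN2 and SNAP25 were called higher with crotonate, RBFOX3 was called lower and 4 were not called. The median log2 change of the neuron markers was -0.81. STMN2 had 108 FPKM in Cr primed, 75.4 FPKM in endodermal and 3.74 FPKM in untreated primed cells, and RBFOX3 had 0.49, 0.17 and 6.91 FPKM. Of 6 neural crest markers 2, 3 and 4 reached 1 FPKM, with sums of 158, 112 and 34.3 FPKM. Of these sums SNAI2, also a mesenchymal gene, gave 154 FPKM in Cr primed, 63.1 FPKM in endodermal and 1.006 FPKM in untreated primed cells. TFAP2A gave 40.2 FPKM in endodermal cells, against 0.171 FPKM in Cr primed cells. ERBB3 gave 7.69 FPKM in endodermal cells and 26.7 FPKM in untreated primed cells. FOXD3 was listed at 0 in Cr primed cells and TFAP2A in untreated primed cells. In Cr hEPS and untreated hEPS cells, 6 and 6 pluripotency markers and 7 and 6 endoderm markers reached 1 FPKM. For mesoderm and mesenchyme markers these numbers were 5 and 6. ZFP42 was listed at 0 in both groups. The endoderm sums were 2460 and 128 FPKM, of which CER1 gave 1962.5 and 39.0 FPKM. All 7 endoderm markers were called higher in hEPS cells, with a median log2 change of 2.67. The mesoderm and mesenchyme sums were 262 and 49.9 FPKM, of which COL1A1 gave 244 and 34.6 FPKM. Of the 6 mesoderm and mesenchyme markers measured in hEPS cells, only COL1A1 was called higher and 5 were not called. Their median log2 change was 0.24. In the same groups, 7 and 8 neural progenitor markers, 7 and 7 neuron markers and 4 and 5 neural crest markers reached 1 FPKM. Their sums were 461 and 382, 570.0 and 303, and 23.5 and 25.8 FPKM. STMN2, with 254 FPKM in Cr and 27.9 FPKM in untreated hEPS cells, and SNAP25 were called higher here too. MAP2, with 13.6 FPKM in Cr and 33.4 FPKM in untreated hEPS cells, was called lower. The other 5 neuron markers measured in hEPS cells were not called, and the median log2 change of the list was -0.05. The part of such cells in the results below was not tested, and in bulk RNA a change in the number of cells of a type cannot be told apart from a change of RNA per cell.

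A set of 6 genes was chosen to show what lies upstream of members that moved in different ways, namely SLIT3 and EPHB3, which rose strongly in primed hESCs, EPHA1, which fell there, PLXND1, which rose in both states, and EFNB1 and SEMA5B, which moved in opposite directions. The 250 bases before the RefSeq start of each are printed from 5′ to 3′ on the gene's strand (build GRCh38.p14), and each of these starts coincides with the gene start of GENCODE 44. Capitals mark the GC box GGGCGG or its reverse complement CCGCCC, and the GATA core AGATAA or its reverse complement TTATCT, with overlapping matches counted. The windows lie at chr5:169301140-169301389 for SLIT3, chr3:184561535-184561784 for EPHB3, chr7:143408857-143409106 for EPHA1, chr3:129606677-129606926 for PLXND1, chrX:68828771-68829020 for EFNB1 and chr3:123028606-123028855 for SEMA5B.
SLIT3: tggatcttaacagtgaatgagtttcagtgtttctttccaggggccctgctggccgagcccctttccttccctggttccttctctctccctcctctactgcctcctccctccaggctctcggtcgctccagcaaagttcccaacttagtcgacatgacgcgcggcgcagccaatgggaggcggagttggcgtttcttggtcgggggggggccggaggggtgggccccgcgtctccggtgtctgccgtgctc
EPHB3: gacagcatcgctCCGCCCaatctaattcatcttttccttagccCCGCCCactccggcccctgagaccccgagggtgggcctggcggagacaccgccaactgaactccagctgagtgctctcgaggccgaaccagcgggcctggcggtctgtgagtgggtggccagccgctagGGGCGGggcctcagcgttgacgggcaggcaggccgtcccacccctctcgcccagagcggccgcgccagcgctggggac
EPHA1: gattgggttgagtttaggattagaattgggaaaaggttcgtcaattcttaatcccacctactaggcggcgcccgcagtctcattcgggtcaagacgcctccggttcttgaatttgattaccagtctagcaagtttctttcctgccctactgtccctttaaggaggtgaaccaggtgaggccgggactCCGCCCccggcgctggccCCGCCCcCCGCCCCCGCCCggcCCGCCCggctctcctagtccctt
PLXND1: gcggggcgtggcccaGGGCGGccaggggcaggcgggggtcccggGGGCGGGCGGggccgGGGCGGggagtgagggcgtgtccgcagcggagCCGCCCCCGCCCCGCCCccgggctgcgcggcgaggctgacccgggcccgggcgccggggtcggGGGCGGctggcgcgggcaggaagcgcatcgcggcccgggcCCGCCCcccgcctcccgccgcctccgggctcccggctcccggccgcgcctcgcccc
EFNB1: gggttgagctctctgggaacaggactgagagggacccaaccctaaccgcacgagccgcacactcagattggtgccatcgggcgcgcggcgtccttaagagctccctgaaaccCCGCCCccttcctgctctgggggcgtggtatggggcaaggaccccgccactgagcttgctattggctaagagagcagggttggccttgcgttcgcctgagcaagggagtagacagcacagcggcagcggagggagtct
SEMA5B: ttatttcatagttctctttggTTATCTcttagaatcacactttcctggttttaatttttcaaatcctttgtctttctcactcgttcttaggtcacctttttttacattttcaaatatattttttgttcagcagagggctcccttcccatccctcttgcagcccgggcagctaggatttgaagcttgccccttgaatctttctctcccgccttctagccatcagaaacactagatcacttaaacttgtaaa
PLXND1 was the richest in CpG, with 41 CG dinucleotides and 9 GC boxes, and SEMA5B the poorest of the 6, with 3 CG dinucleotides, no GC box and 1 GATA core. SLIT3 held 16 CG dinucleotides and no GC box, EPHB3 21 and 3, EPHA1 17 and 5, and EFNB1 15 and 1. RefSeq windows were found for 58 of the 68 genes. Of these, 43 (74.1%) held a GC box, against 42.3% of 27305 promoters, and 5 (8.62%) held the GATA core, against 9.37%. The median number of CG dinucleotides was 17 in the 58 windows and 11 in all. Genes that rose and genes that fell both had GC boxes, and a match is a description of the letters and not of a bound factor.

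Among the ligands, the 7 class 3 semaphorins are secreted. SEMA3B and SEMA3C rose in primed hESCs, and SEMA3E and SEMA3F rose in hEPS cells. The level of SEMA3C was 3.56 FPKM in Cr primed, 13.7 FPKM in endodermal and 0.340 FPKM in untreated primed cells, next to 4.06 FPKM in Cr and 7.33 FPKM in untreated hEPS cells. SEMA3B, which lies 78.5 kb from SEMA3F on chromosome 3, had 6.78 FPKM in Cr primed, 13.1 FPKM in endodermal and 2.27 FPKM in untreated primed cells, and both genes are ligands that bind NRP2. SEMA3F was measured at 18.0 FPKM in Cr primed, 14.98 FPKM in endodermal and 18.1 FPKM in untreated primed cells, and at 38.6 FPKM in Cr hEPS and 12.2 FPKM in untreated hEPS cells. SEMA3F was thus level in primed hESCs, with a log2 change of -0.01, and rose by 1.58 in hEPS cells. SEMA3E had 0.207 FPKM in Cr primed, 0.170 FPKM in endodermal and 0.313 FPKM in untreated primed cells, and 8.12 FPKM in Cr and 1.84 FPKM in untreated hEPS cells. SEMA3E, which binds PLXND1 without a neuropilin, was below 1 FPKM in the primed and endodermal columns and rose with crotonate in hEPS cells, where its log2 change was 1.69. The level of SEMA3A was 12.2 FPKM in Cr primed, 11.4 FPKM in endodermal and 10.1 FPKM in untreated primed cells, next to 33.6 FPKM in Cr and 21.3 FPKM in untreated hEPS cells. SEMA3A, the founding repellent of the class and a ligand of NRP1, was called in neither state. SEMA3D and SEMA3G lay between 0.721 and 4.03 FPKM in all columns and were not called.

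The membrane-bound class 4 semaphorins held no gene that rose in either state, and SEMA4A and SEMA4D fell in primed hESCs. SEMA4D was measured at 2.11 FPKM in Cr primed, 4.82 FPKM in endodermal and 18.9 FPKM in untreated primed cells, and at 12.9 FPKM in Cr hEPS and 14.1 FPKM in untreated hEPS cells. The log2 change of SEMA4D, a ligand of plexin B1 also known as CD100, came to -2.68 in primed hESCs and -0.12 in hEPS cells. SEMA4A had 1.17 FPKM in Cr primed, 0.609 FPKM in endodermal and 5.38 FPKM in untreated primed cells, and 5.87 FPKM in Cr and 7.65 FPKM in untreated hEPS cells. The level of SEMA4C was 48.5 FPKM in Cr primed, 40.6 FPKM in endodermal and 28.9 FPKM in untreated primed cells, next to 68.3 FPKM in Cr and 74.5 FPKM in untreated hEPS cells. SEMA4C, which binds plexin B2, was the most abundant of the class in each column and made up 66.8% of its summed FPKM in Cr primed hESCs, 65.9% in endodermal cells and 35.8% in untreated primed hESCs. SEMA4B was measured at 12.9 FPKM in Cr primed, 9.55 FPKM in endodermal and 19.9 FPKM in untreated primed cells, and at 26.6 FPKM in Cr hEPS and 37.7 FPKM in untreated hEPS cells. SEMA4F and SEMA4G lay between 2.15 and 8.29 FPKM and were not called. The class median of the log2 change came to -0.34 in primed hESCs and -0.23 in hEPS cells.

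Classes 5 and 6 held a gene that rose in primed hESCs and fell in hEPS cells, SEMA5B, and others called in 1 state. SEMA5B had 28.7 FPKM in Cr primed, 8.13 FPKM in endodermal and 10.4 FPKM in untreated primed cells, and 10.7 FPKM in Cr and 29.8 FPKM in untreated hEPS cells. The level of SEMA5A was 5.54 FPKM in Cr primed, 13.8 FPKM in endodermal and 2.97 FPKM in untreated primed cells, next to 26.6 FPKM in Cr and 7.47 FPKM in untreated hEPS cells. SEMA5A and SEMA5B, both with thrombospondin repeats, exchanged the lead in hEPS cells, where SEMA5A gave 71.3% of their sum with crotonate and SEMA5B gave 80.0% without it. SEMA5B had risen in primed hESCs by 1.38 on the log2 scale and fell by 1.40 in hEPS cells, whereas SEMA5A was called in hEPS cells alone, with 1.70. SEMA6A was measured at 19.9 FPKM in Cr primed, 66.7 FPKM in endodermal and 60.3 FPKM in untreated primed cells, and at 126 FPKM in Cr hEPS and 135 FPKM in untreated hEPS cells. SEMA6A, a transmembrane ligand of plexins A2 and A4, was the most abundant semaphorin in endodermal, untreated primed and both hEPS columns, and it fell by 1.55 in primed hESCs. SEMA6D had 11.4 FPKM in Cr primed, 4.28 FPKM in endodermal and 0.661 FPKM in untreated primed cells, and 4.82 FPKM in Cr and 3.27 FPKM in untreated hEPS cells. The level of SEMA6B was 21.8 FPKM in Cr primed, 2.01 FPKM in endodermal and 22.8 FPKM in untreated primed cells, next to 46.2 FPKM in Cr and 16.5 FPKM in untreated hEPS cells. SEMA6D rose only in primed hESCs (log2 change 2.91) and SEMA6B only in hEPS cells (1.43), although whether these responses differ between the states could not be tested. SEMA6C was measured at 14.5 FPKM in Cr primed, 9.77 FPKM in endodermal and 12.4 FPKM in untreated primed cells, and at 14.1 FPKM in Cr hEPS and 10.7 FPKM in untreated hEPS cells. SEMA7A, the lipid-anchored semaphorin, stayed between 5.20 and 8.81 FPKM in all columns and SEMA6C between 9.77 and 14.5 FPKM, and neither was called.

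Of the co-receptors of class 3 semaphorins, NRP1 had the largest log2 change of the 68 genes in primed hESCs. NRP1 had 157 FPKM in Cr primed, 31.9 FPKM in endodermal and 0.399 FPKM in untreated primed cells, and 6.33 FPKM in Cr and 4.87 FPKM in untreated hEPS cells. NRP1 (chromosome 10, 33177492 to 33336262), which also serves VEGF-A, rose by 6.82 on the log2 scale in primed hESCs, and the ratio of its FPKM values was 393. At least 31 reads lay behind its untreated value, and the ratio had a 95% counting interval of 277 to 578, which covers counting error alone and holds here and below for the smallest whole read numbers that give the 2 values. The level of NRP2 was 206 FPKM in Cr primed, 130.0 FPKM in endodermal and 13.1 FPKM in untreated primed cells, next to 64.9 FPKM in Cr and 23.7 FPKM in untreated hEPS cells. NRP2 (chromosome 2, 205681990 to 205798133), the co-receptor of SEMA3F, rose in both states, by 3.87 in primed hESCs and by 1.42 in hEPS cells. The summed FPKM of the neuropilins was 362.3 in Cr primed, 161.9 in endodermal and 13.5 in untreated primed cells, and 71.3 in Cr and 28.5 in untreated hEPS cells. NRP1 supplied 43.3% of the sum in Cr primed hESCs but 2.96% in untreated primed hESCs, and in hEPS cells it was called in neither direction.

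Plexins, the signalling receptors of semaphorins, were led by PLXNB2 in every column but that of endodermal cells, in which PLXND1 led with 38.2% of the summed FPKM. PLXND1 was measured at 50.4 FPKM in Cr primed, 82.9 FPKM in endodermal and 16.9 FPKM in untreated primed cells, and at 89.4 FPKM in Cr hEPS and 13.1 FPKM in untreated hEPS cells. PLXND1 (chromosome 3, 129555214 to 129606676), known for its part in vessel patterning, rose by 1.52 in primed hESCs and by 2.68 in hEPS cells. PLXNA2 had 5.29 FPKM in Cr primed, 7.74 FPKM in endodermal and 0.411 FPKM in untreated primed cells, and 33.7 FPKM in Cr and 6.07 FPKM in untreated hEPS cells. The level of PLXNA4 was 6.57 FPKM in Cr primed, 1.93 FPKM in endodermal and 0.858 FPKM in untreated primed cells, next to 2.63 FPKM in Cr and 0.362 FPKM in untreated hEPS cells. PLXNA2 rose by 2.16 and 2.30 and PLXNA4 by 2.03 and 1.41 in primed hESCs and hEPS cells, and the smallest read numbers that give the hEPS ratio of PLXNA4 leave it with a counting interval between 1.58 and 67.4. PLXNB1 was measured at 10.52 FPKM in Cr primed, 17.0 FPKM in endodermal and 27.3 FPKM in untreated primed cells, and at 17.5 FPKM in Cr hEPS and 27.3 FPKM in untreated hEPS cells. PLXNB1, the receptor of SEMA4D, was the sole plexin that fell, with an FPKM ratio of 0.385 in primed hESCs. PLXNB2 had 54.1 FPKM in Cr primed, 59.7 FPKM in endodermal and 46.7 FPKM in untreated primed cells, and 95.6 FPKM in Cr and 59.5 FPKM in untreated hEPS cells. The level of PLXNA1 was 28.5 FPKM in Cr primed, 28.4 FPKM in endodermal and 36.9 FPKM in untreated primed cells, next to 24.3 FPKM in Cr and 18.0 FPKM in untreated hEPS cells. PLXNA3 was measured at 11.2 FPKM in Cr primed, 18.5 FPKM in endodermal and 6.86 FPKM in untreated primed cells, and at 8.75 FPKM in Cr hEPS and 6.90 FPKM in untreated hEPS cells. None of these 3 plexins, which bind semaphorins of several classes, was called in either state. PLXNB3 and PLXNC1 lay between 0.296 and 3.43 FPKM and were not called.

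**Figure D2:**
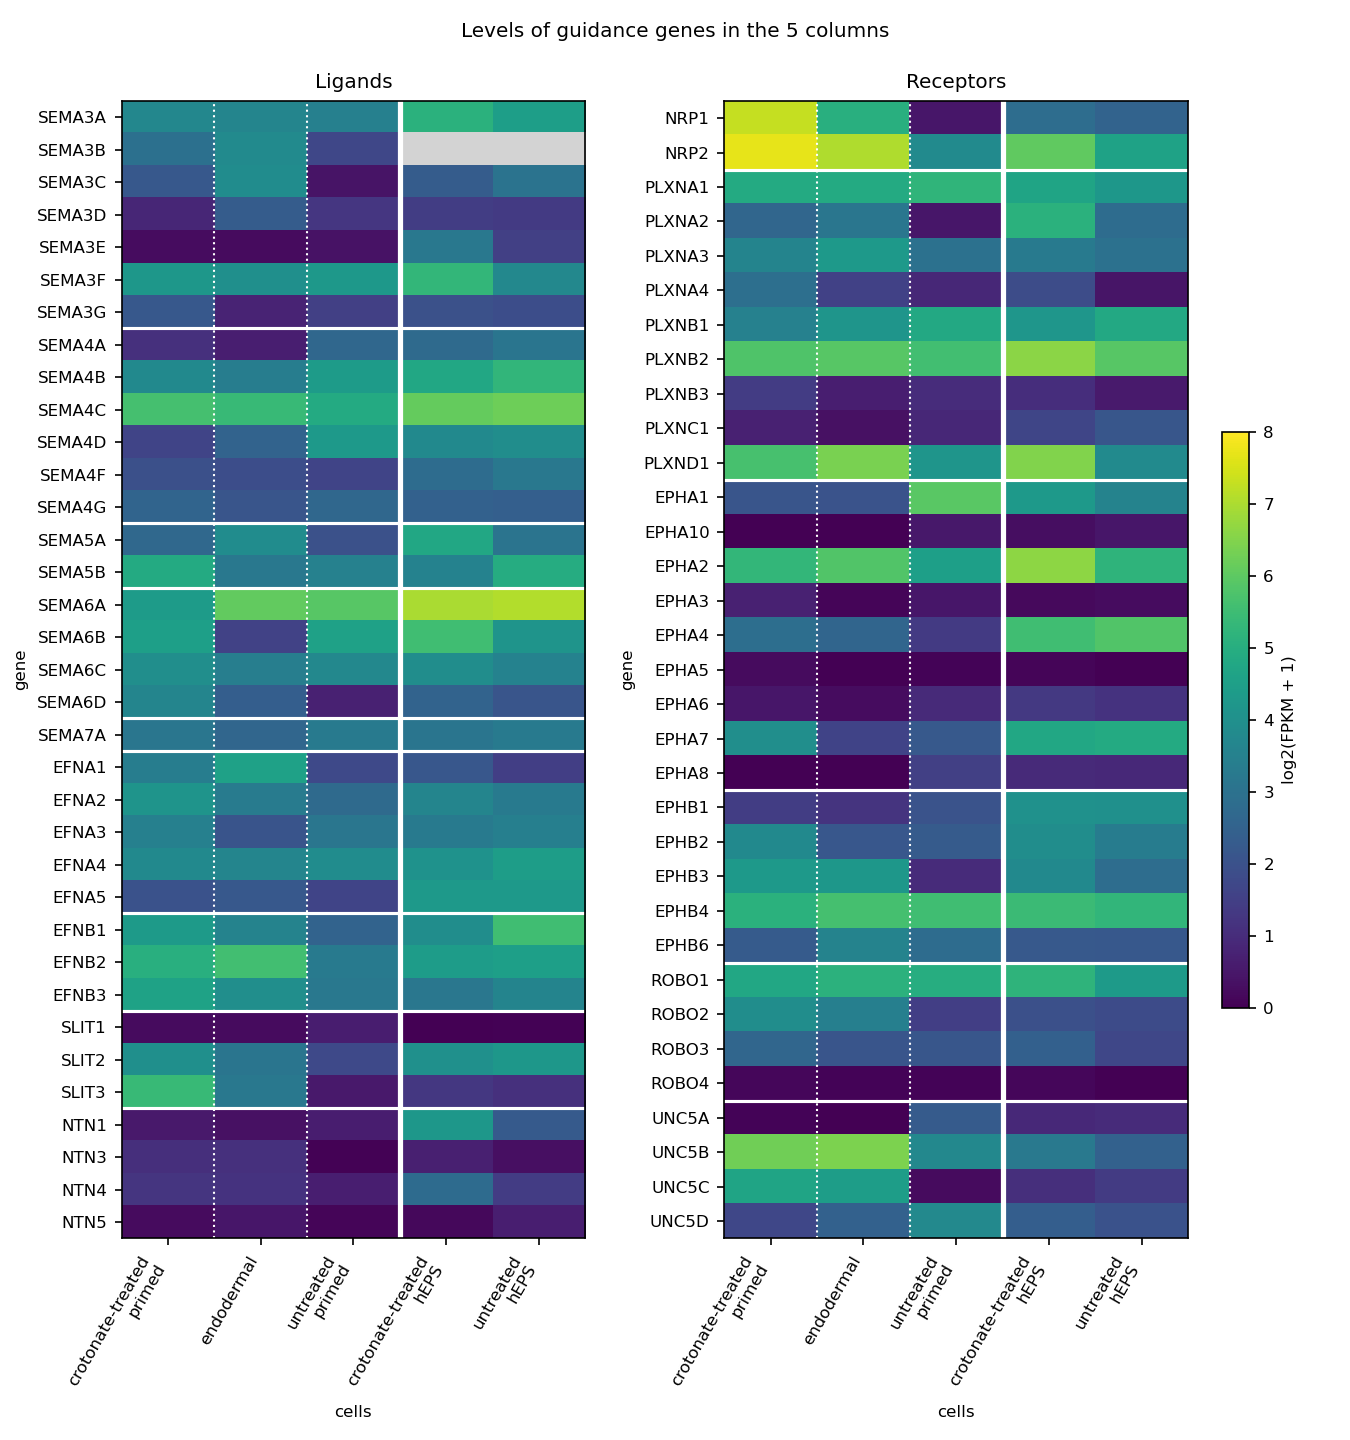
Heat maps of log2(FPKM + 1) for the ligands (left) and receptors (right) in the 5 columns, with horizontal white lines between families and grey for SEMA3B, which was not analysed in hEPS cells. NRP2, NRP1 and UNC5B are the brightest receptors in crotonate-treated primed hESCs, and NRP2, UNC5B and PLXND1 in endodermal cells, against 13.1 FPKM for NRP2 and 12.2 FPKM for UNC5B in untreated primed hESCs; the hEPS columns come from a separate table.

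Ephrins of the A type rose in part and those of the B type as a whole in primed hESCs. EFNB1 had 19.7 FPKM in Cr primed, 10.9 FPKM in endodermal and 4.80 FPKM in untreated primed cells, and 14.3 FPKM in Cr and 46.2 FPKM in untreated hEPS cells. The level of EFNB2 was 32.2 FPKM in Cr primed, 46.9 FPKM in endodermal and 8.52 FPKM in untreated primed cells, next to 20.2 FPKM in Cr and 22.1 FPKM in untreated hEPS cells. EFNB3 was measured at 23.5 FPKM in Cr primed, 14.5 FPKM in endodermal and 8.19 FPKM in untreated primed cells, and at 8.06 FPKM in Cr hEPS and 11.2 FPKM in untreated hEPS cells. EFNB1, EFNB2 and EFNB3 rose in primed hESCs by 1.83, 1.80 and 1.42, and their summed FPKM was 75.4 in Cr primed, 72.3 in endodermal and 21.5 in untreated primed cells. In hEPS cells the sum was 42.6 with crotonate and 79.4 without it, and EFNB1 (chromosome X, 68829021 to 68842160), which gave 58.1% of the sum in untreated hEPS cells, fell by 1.63 there. EFNA1 had 9.53 FPKM in Cr primed, 23.0 FPKM in endodermal and 2.40 FPKM in untreated primed cells, and 3.51 FPKM in Cr and 1.78 FPKM in untreated hEPS cells. The level of EFNA2 was 16.7 FPKM in Cr primed, 8.9997 FPKM in endodermal and 5.85 FPKM in untreated primed cells, next to 11.4 FPKM in Cr and 8.63 FPKM in untreated hEPS cells. EFNA1, a ligand of EPHA2, and EFNA2 rose in primed hESCs by 1.63 and 1.37, and neither was called in hEPS cells. EFNA3 was measured at 10.2 FPKM in Cr primed, 3.22 FPKM in endodermal and 7.83 FPKM in untreated primed cells, and at 8.77 FPKM in Cr hEPS and 9.87 FPKM in untreated hEPS cells. EFNA4 had 13.002 FPKM in Cr primed, 11.6 FPKM in endodermal and 13.8 FPKM in untreated primed cells, and 15.8 FPKM in Cr and 20.7 FPKM in untreated hEPS cells. The level of EFNA5 was 3.07 FPKM in Cr primed, 3.64 FPKM in endodermal and 2.13 FPKM in untreated primed cells, next to 19.1 FPKM in Cr and 19.0 FPKM in untreated hEPS cells. EFNA3, EFNA4 and EFNA5 were called in neither state. EFNA4, EFNA3 and EFNA1 lie close together on chromosome 1, with gaps of 9.3 and 40.3 kb, and EFNA1 was the only one of the 3 that was called.

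Receptors of A-type ephrins changed their leading member. EPHA1 was measured at 3.31 FPKM in Cr primed, 3.16 FPKM in endodermal and 60.3 FPKM in untreated primed cells, and at 19.0 FPKM in Cr hEPS and 10.96 FPKM in untreated hEPS cells. EPHA2 had 38.6 FPKM in Cr primed, 55.8 FPKM in endodermal and 21.9 FPKM in untreated primed cells, and 99.5 FPKM in Cr and 35.8 FPKM in untreated hEPS cells. In untreated primed hESCs EPHA1 supplied 66.1% of the summed EPHA values, whereas EPHA2 supplied 60.2% in Cr primed hESCs and 84.1% in endodermal cells. EPHA1 (chromosome 7, 143390289 to 143408856), the first EPH receptor to be described, fell by 3.83 in primed hESCs, with an FPKM ratio of 0.0549 (95% counting interval 0.0490 to 0.0614). EPHA2 rose in hEPS cells by 1.45 and was not called in primed hESCs, with a log2 change of 0.79. The level of EPHA4 was 6.37 FPKM in Cr primed, 5.11 FPKM in endodermal and 1.56 FPKM in untreated primed cells, next to 45.9 FPKM in Cr and 55.7 FPKM in untreated hEPS cells. EPHA7 was measured at 14.6 FPKM in Cr primed, 2.03 FPKM in endodermal and 3.75 FPKM in untreated primed cells, and at 26.8 FPKM in Cr hEPS and 28.8 FPKM in untreated hEPS cells. EPHA4, which takes ephrins of both types, and EPHA7 rose in primed hESCs by 1.52 and 1.72, whereas in hEPS cells they were abundant with and without crotonate and were not called. EPHA8 fell in primed hESCs and was listed at 0 FPKM in Cr primed and in endodermal cells, against 1.86 FPKM in untreated primed cells, and had 0.955 FPKM in Cr and 0.885 FPKM in untreated hEPS cells. EPHA3, EPHA5, EPHA6 and EPHA10 did not exceed 1.53 FPKM in any column and were not called.

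Among the receptors of B-type ephrins, EPHB2 and EPHB3 rose in primed hESCs and none was called in hEPS cells. EPHB3 had 18.9 FPKM in Cr primed, 17.8 FPKM in endodermal and 0.978 FPKM in untreated primed cells, and 12.9 FPKM in Cr and 6.25 FPKM in untreated hEPS cells. The level of EPHB2 was 12.8 FPKM in Cr primed, 3.55 FPKM in endodermal and 3.90 FPKM in untreated primed cells, next to 14.2 FPKM in Cr and 9.26 FPKM in untreated hEPS cells. EPHB3 (chromosome 3, 184561785 to 184582408) rose by 3.33, with a ratio of 19.4 and a counting interval of 13.7 to 28.2, and EPHB2 rose with a ratio of 3.29. In hEPS cells the log2 change of EPHB3 was 0.94, just short of the threshold. EPHB4 was measured at 33.5 FPKM in Cr primed, 48.9 FPKM in endodermal and 45.5 FPKM in untreated primed cells, and at 42.9 FPKM in Cr hEPS and 37.6 FPKM in untreated hEPS cells. EPHB4, the receptor of EFNB2 in veins, led the family in each column, with 47.2% of its sum in Cr primed, 59.4% in endodermal and 76.4% in untreated primed cells. EPHB1 had 1.76 FPKM in Cr primed, 1.29 FPKM in endodermal and 3.11 FPKM in untreated primed cells, and 15.6 FPKM in Cr and 15.3 FPKM in untreated hEPS cells. The level of EPHB6 was 3.91 FPKM in Cr primed, 10.9 FPKM in endodermal and 6.08 FPKM in untreated primed cells, next to 3.72 FPKM in Cr and 3.56 FPKM in untreated hEPS cells. EPHB1 and EPHB6, of which EPHB6 lacks kinase activity, were not called in either state. EPHB2 lies 107.2 kb from EPHA8 on chromosome 1, and these neighbours were called in opposite directions in primed hESCs.

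**Figure D3:**
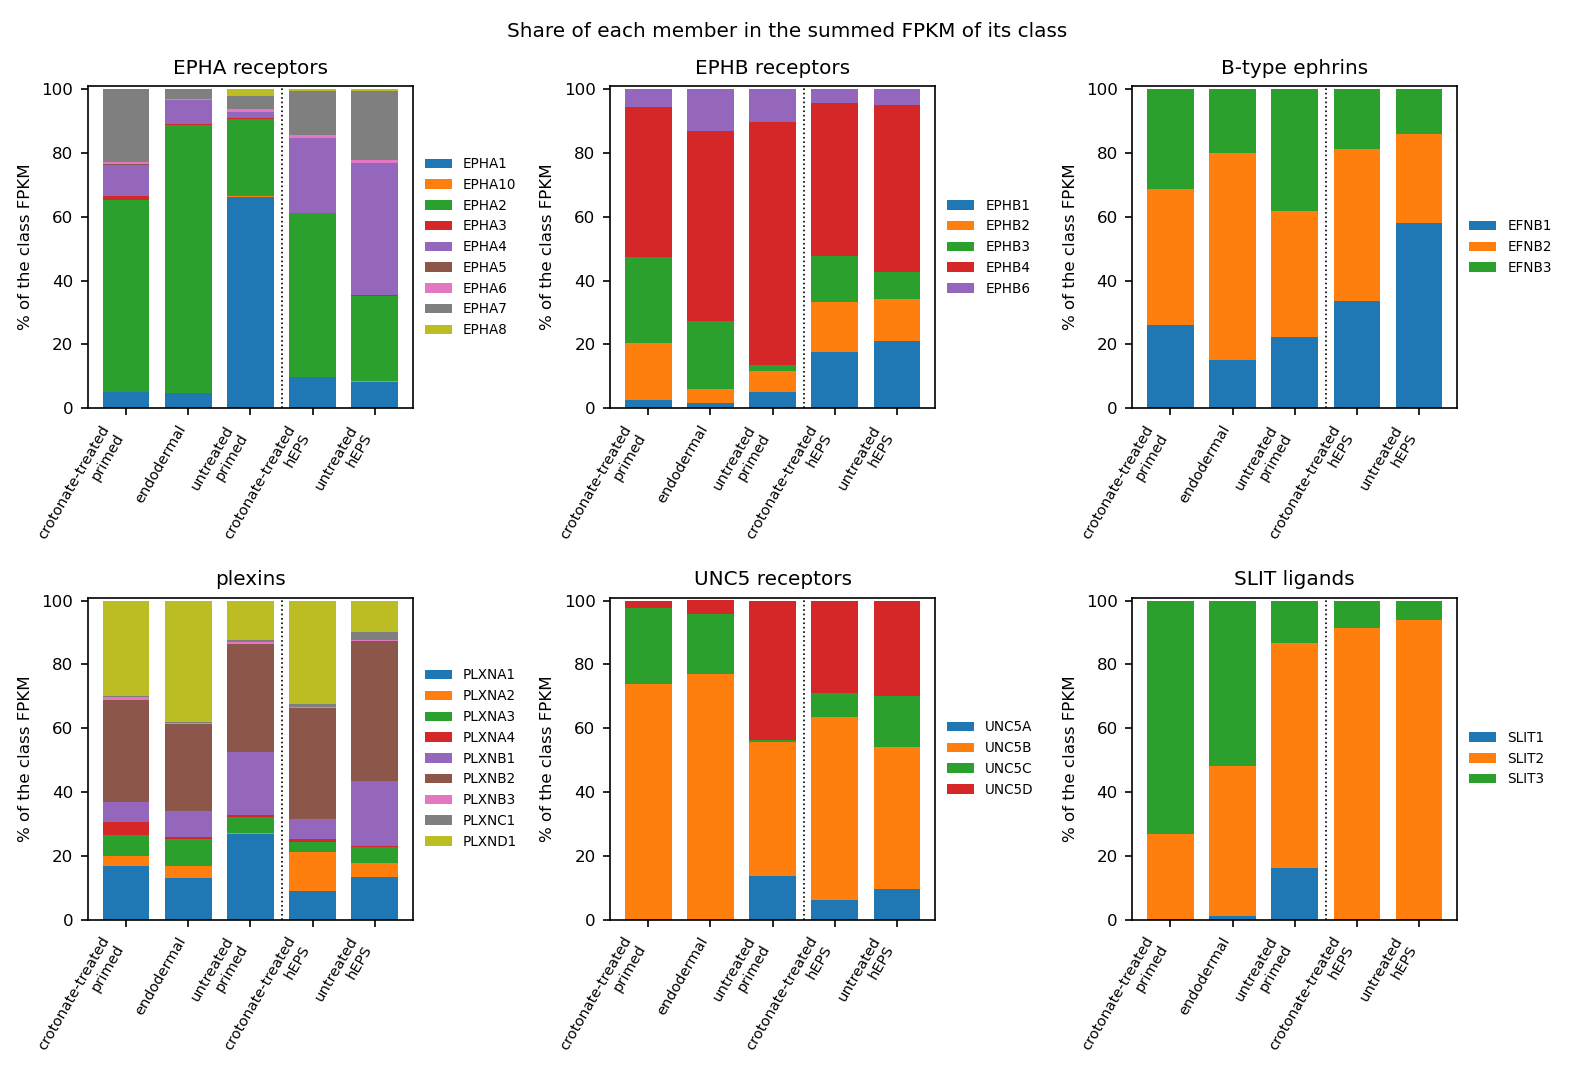
Stacked bars give the percentage of each gene in the summed FPKM of its family in the 5 columns, for 6 families. EPHA1 holds 66.1% of the EPHA sum in untreated primed hESCs and EPHA2 holds 60.2% in crotonate-treated primed hESCs, and SLIT3 holds 73.1% of the SLIT sum in crotonate-treated primed hESCs, where SLIT2 led without crotonate.

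Of the SLIT ligands, SLIT2 and SLIT3 rose in primed hESCs and neither was called in hEPS cells. SLIT3 was measured at 40.7 FPKM in Cr primed, 8.31 FPKM in endodermal and 0.453 FPKM in untreated primed cells, and at 1.43 FPKM in Cr hEPS and 1.14 FPKM in untreated hEPS cells. SLIT3 (chromosome 5, 168661740 to 169301139) rose by 4.84, with a ratio of 89.8 and a counting interval of 76.3 to 107. SLIT2 had 14.8 FPKM in Cr primed, 7.56 FPKM in endodermal and 2.40 FPKM in untreated primed cells, and 15.3 FPKM in Cr and 17.9 FPKM in untreated hEPS cells. SLIT2, a ligand of ROBO1 and ROBO2, rose by 2.22 in primed hESCs, and the family sum was 55.6 FPKM in Cr primed, 16.1 FPKM in endodermal and 3.40 FPKM in untreated primed cells. SLIT3 gave 73.1% of that sum in Cr primed hESCs, and SLIT2 gave 70.5% in untreated primed hESCs and 91.4% and 93.8% in Cr and untreated hEPS cells. SLIT1 did not exceed 0.551 FPKM in any column. Among the receptors, ROBO2 rose in primed hESCs. The level of ROBO2 was 14.1 FPKM in Cr primed, 10.0 FPKM in endodermal and 1.81 FPKM in untreated primed cells, next to 2.86 FPKM in Cr and 2.57 FPKM in untreated hEPS cells. ROBO1 was measured at 26.5 FPKM in Cr primed, 34.5 FPKM in endodermal and 30.5 FPKM in untreated primed cells, and at 35.8 FPKM in Cr hEPS and 19.4 FPKM in untreated hEPS cells. ROBO1, the most abundant ROBO receptor in all 5 columns, was not called in either state, and its log2 change came to -0.19 in primed hESCs and 0.85 in hEPS cells. ROBO2 rose by 2.42 in primed hESCs and lies 947.3 kb from ROBO1. ROBO3, a receptor of commissural axons, lay between 2.28 and 5.28 FPKM, and ROBO4, the endothelial member, did not exceed 0.0968 FPKM.

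Netrins were scarce in the primed and endodermal columns. NTN1 had 0.474 FPKM in Cr primed, 0.275 FPKM in endodermal and 0.571 FPKM in untreated primed cells, and 18.0 FPKM in Cr and 3.78 FPKM in untreated hEPS cells. NTN1 (chromosome 17, 9021510 to 9244000), the main diffusible netrin, rose in hEPS cells by 1.99, with a ratio of 4.76 and a counting interval of 4.36 to 5.22, and was under 1 FPKM in the other 3 columns. The level of NTN4 was 1.34 FPKM in Cr primed, 1.23 FPKM in endodermal and 0.609 FPKM in untreated primed cells, next to 6.01 FPKM in Cr and 1.69 FPKM in untreated hEPS cells. NTN3 was measured at 1.13 FPKM in Cr primed, 1.15 FPKM in endodermal and 0.0306 FPKM in untreated primed cells, and at 0.626 FPKM in Cr hEPS and 0.259 FPKM in untreated hEPS cells. NTN4, related in sequence to laminin chains, rose by 1.38 in hEPS cells and was not called in primed hESCs. NTN3 was called higher in primed hESCs on a log2 change of 1.04, but as few as 2 reads may lie behind its untreated value and the counting interval of its ratio ran between 9.79 and 310.5. NTN5 did not exceed 0.607 FPKM in any column. DCC, the attractive netrin receptor, lay at or below 0.0892 FPKM in the primed and endodermal columns and had 0.556 FPKM in Cr hEPS and 1.55 FPKM in untreated hEPS cells.

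All 4 UNC5 receptors were called in primed hESCs, 2 in each direction. UNC5C had 24.7 FPKM in Cr primed, 20.7 FPKM in endodermal and 0.175 FPKM in untreated primed cells, and 1.11 FPKM in Cr and 1.63 FPKM in untreated hEPS cells. The level of UNC5B was 76.1 FPKM in Cr primed, 83.9 FPKM in endodermal and 12.2 FPKM in untreated primed cells, next to 8.34 FPKM in Cr and 4.58 FPKM in untreated hEPS cells. UNC5C (chromosome 4, 95162504 to 95549206) rose by 4.45, with a ratio of 141 and a counting interval of 90.2 to 235, at least 19 reads lying behind the untreated value, and UNC5B (chromosome 10, 71212570 to 71302864) rose by 2.55. UNC5A had 0.0645 FPKM in Cr primed cells, was listed at 0 in endodermal cells and had 3.94 FPKM in untreated primed cells, and it had 0.875 FPKM in Cr and 0.995 FPKM in untreated hEPS cells. UNC5D was measured at 2.26 FPKM in Cr primed, 4.57 FPKM in endodermal and 12.6 FPKM in untreated primed cells, and at 4.19 FPKM in Cr hEPS and 3.08 FPKM in untreated hEPS cells. UNC5A and UNC5D fell by 2.22 and 2.07, and the counting interval of the UNC5A ratio ran between 0.00654 and 0.0340. The summed FPKM of the family was 103.2 in Cr primed, 109.2 in endodermal and 28.9 in untreated primed cells, and UNC5D led it, with 43.7%, in untreated primed cells alone. In hEPS cells none of the 4 was called, and their log2 changes lay between -0.32 and 0.74.

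**Figure D4:**
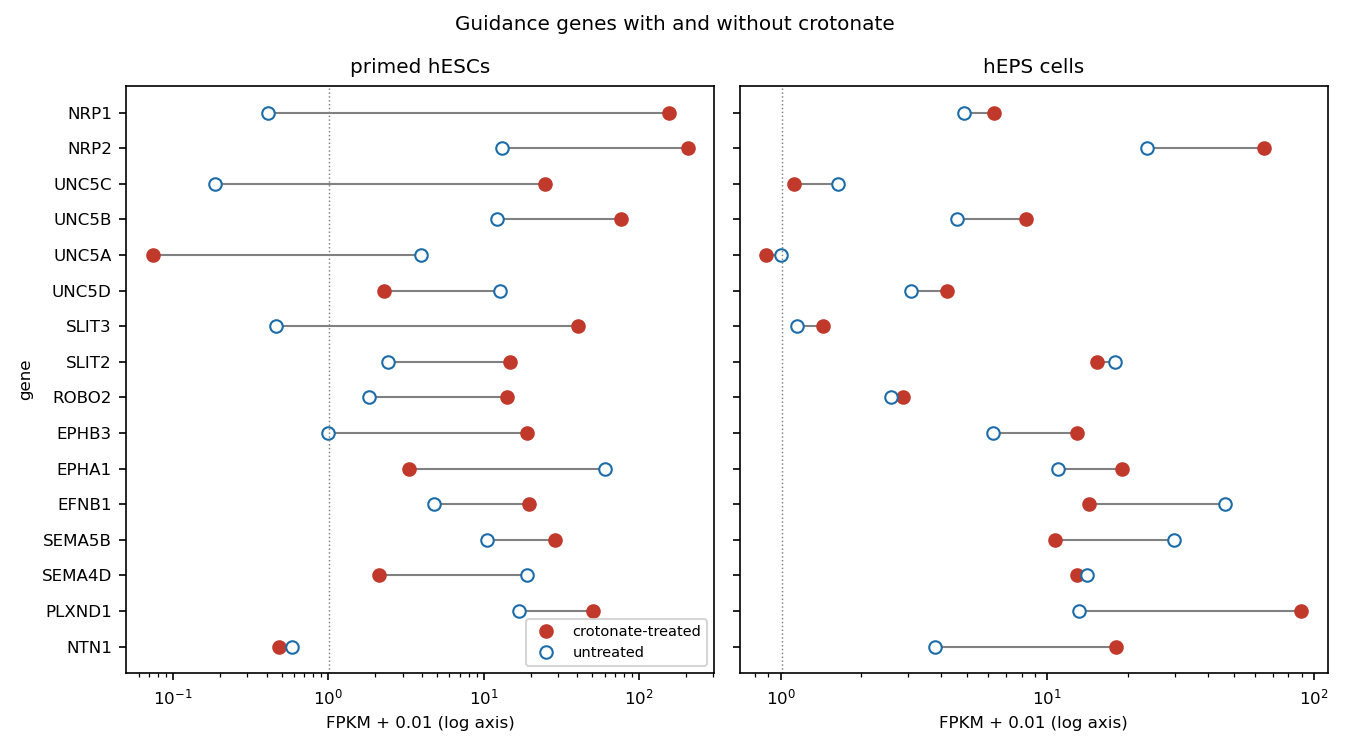
FPKM of 16 guidance genes in primed hESCs (left) and hEPS cells (right) on a log axis, with filled points for crotonate-treated and open points for untreated cells, and a dotted line at 1 FPKM. NRP1, UNC5C and SLIT3 span the widest intervals in primed hESCs, where UNC5A, UNC5D, EPHA1 and SEMA4D run the other way, and NTN1 and PLXND1 have the widest intervals in hEPS cells.

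Ligands and receptors were then read as 42 known partner pairs, of which 41 could be followed in hEPS cells. Both partners reached 1 FPKM in 31 pairs in Cr primed, 29 in endodermal and 22 in untreated primed cells, and in 36 pairs in Cr and 33 in untreated hEPS cells. In primed hESCs both partners rose in 8 pairs. These were EFNB1 with EPHB2 and with EPHB3, EFNB2 with EPHA4, EFNB3 with EPHB3 and with EPHA4, SEMA3B and SEMA3C with NRP2, and SLIT2 with ROBO2. The pairs share members and are not independent, and the list does not hold every known pairing. With 41.4% of the measured guidance genes higher in primed hESCs, some pairs would have both partners higher without any link between them. The number of pairs to be met at that rate was not computed, for these 8 pairs or for the pair counts that follow. Whether ligands and receptors changed together was thus not tested. SEMA4D and PLXNB1 were the pair in which both fell. In 3 pairs the partners moved in opposite directions in primed hESCs, namely SEMA4A with PLXND1 and SEMA6A with PLXNA2 and with PLXNA4, the ligand being lower and the receptor higher. In hEPS cells both partners rose in 3 pairs, SEMA3E with PLXND1, SEMA3F with NRP2 and SEMA6B with PLXNA4. NTN1 and an UNC5 receptor were both above 1 FPKM in the hEPS columns alone, and these pairings were with UNC5B, UNC5C and UNC5D. The hEPS levels are not on the scale of the other columns, so 1 FPKM need not mean the same there. This limit also holds for the numbers of pairs at 1 FPKM given above.

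The co-receptors and signal transducers of guidance were taken as a list of 63 further genes. In primed hESCs 53 were measured, of which 8 rose and 9 fell, and their median log2 change was -0.13. The largest rises were those of FLRT2 and FLRT3, ligands of UNC5 receptors (log2 changes 3.84 and 2.87), LRRC4C, the ligand of netrin-G1 (2.12), and MICAL2, an oxidase acting on actin (2.07). FLRT2 had 32.5 FPKM in Cr primed, 13.6 FPKM in endodermal and 1.34 FPKM in untreated primed cells. The largest falls were those of RGMA, a ligand of neogenin (-2.32), the kinase PAK1 (-1.71), LRRC4, the ligand of netrin-G2 (-1.68), and MET, the receptor of hepatocyte growth factor (-1.49). In hEPS cells 55 were measured, 3 rose and 4 fell, beside 8.42% and 3.02% of all measured genes, and the median was 0.29. The adhesion molecules L1CAM and DSCAM rose by 1.87 and 1.44 and the small GTPase RRAS by 1.44, while LRRC4, RGMA, DPYSL5 and RGMB fell by 2.13, 2.11, 1.32 and 1.12. RGMA and LRRC4 were thus called lower in both states, and RRAS, with 55.2 FPKM in Cr primed and 13.6 FPKM in untreated primed cells, was called higher in both. Of all 12111 genes measured in both states, 0.76% were called lower in both and 2.98% higher in both. The matching shares of this list were not computed. The counts in primed hESCs stand beside 13.9% of all measured genes called higher and 12.7% called lower.

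Levels in the hEPS columns come from a table of their own and are set beside the others without a fold. Low FPKM values keep the steps of whole reads. Whole read numbers that fit were found for 67 of the 67 genes above 0 in both primed columns and for 66 of 66 in the hEPS columns. The search allowed read numbers so large that almost any ratio could be met, so these counts do not show that true reads were found. When the ratio of the steps was shifted slightly on purpose, read numbers as small or smaller fitted 2 of the 67 genes and 4 of the 66. The library scale behind the FPKM values was 0.883 times as large in Cr as in untreated primed hESCs and 0.758 times as large in Cr as in untreated hEPS cells. Between the endodermal and untreated primed columns 8.89% of 967 low genes shared the commonest step, but between the untreated hEPS and untreated primed columns 0.896% of 1004 did, and hEPS levels are therefore not read on the scale of the primed columns.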

How the data were processed

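Bulk mRNA of the 5 groups was sequenced by the authors as paired-end reads. Per the submitters' processing notes, TopHat 1.3.2, Cufflinks 1.1.0, HTSeq 0.6.0, StringTie 1.3.0 and edgeR were used with hg38. The deposited values are FPKM made by the authors, in 3 tables with 1 column per group (1 table for hEPS cells, with and without crotonate, 1 for primed hESCs likewise and 1 for endodermal cells). The sources used here do not say how 2 samples became 1 column, and the RNA kit is given as RNeasy in the methods and TRIzol in the labels. There were 0 further columns of sample values. Totals of reads are not in the tables, so depth is known only as a ratio between columns.

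Symbols turned into dates by spreadsheet software were dropped (28 of the hEPS cells, 27 of the primed hESCs and 27 of the endodermal cells), which left 26731 genes for hEPS cells and 19198 for the other tables. A comparison by limma had been planned for the case of 1 column per sample and could not be run. Changes are differences of log2(FPKM + 1), with a pseudocount of 1, and a call needed a fold of at least 2 on this scale and 1 FPKM or more in either column. This scale understates the change of low genes. Where 2 values of a gene are whole multiples of 1 read, the smallest whole numbers that give their ratio were taken as reads, and 95% exact intervals of the ratio were computed from them; they cover counting error only. The rule for naming was that genes called in either comparison, or with at least 10 FPKM in any column, are given in all 5 columns, and the others by range, with up to 4 called genes each way from the list of 63. The genes, lists, pairs and rules were chosen with earlier results of these data known. Coordinates come from GENCODE 44 (hg38), in which all 68 genes were found by symbol, and promoters from RefSeq (GRCh38.p14). The calling rule and the read recovery were tried on simulated data. The simulation held counting error alone, without spread between cultures, and no planted changes in low genes. It therefore cannot show how often such spread gives a call, or how low genes that change are called. Alternatives were a pseudocount of 0.1, no filter, median centring, quantile normalization, calling by an FPKM ratio above 1.5, summing of repeated symbols, of which there were 0, and, chosen after seeing the data, a filter of 1 FPKM in both columns. The tools were Python 3.11.15 with pandas 2.3.3, numpy 2.4.6, matplotlib 3.10.9 and scipy 1.17.1.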

Additional observations from a re-analysis of the deposited data

Results flagged for a closer look

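A pair of ligands moved in opposite directions in the cell states under the same crotonate treatment. SEMA5B had a log2 change of 1.38 in primed hESCs and of -1.40 in hEPS cells. EFNB1 had a log2 change of 1.83 in primed hESCs and of -1.63 in hEPS cells. With 1 column per group the difference between the states was not tested for either gene.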

How the results depend on the processing

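The 53 genes given by value kept each call under median centring, quantile normalization, a pseudocount of 0.1 and no filter, except that NTN4 in primed hESCs was called higher with a pseudocount of 0.1 (1.02) and EPHB3 in hEPS cells with that pseudocount or median centring (1.03 in each). The sign of small changes without a call turned under median centring for SEMA3F, SEMA6B and EFNA4 in primed hESCs (0.08, 0.02 and 0.0042) and UNC5A in hEPS cells (0.0029), and under quantile normalization for SEMA3F in primed hESCs (0.04) and SEMA6A, EPHA8, EPHB6 and ROBO2 in hEPS cells (0.06, -0.07, -0.08 and -0.04). Calling by an FPKM ratio above 1.5 gave 32 guidance genes called higher and 12 lower in primed hESCs, in place of 24 and 8, and 21 higher and 5 lower in hEPS cells, in place of 11 and 2, and of the 63 co-receptors and transducers 16 higher and 17 lower in primed hESCs and 15 higher and 9 lower in hEPS cells. EPHA8, listed at 0 with crotonate in primed hESCs, has no finite log2 ratio and was counted as lower. The share of all measured genes called by this ratio rule was not computed, so these larger counts have no background to stand beside. With at least 1 FPKM required in both columns, a filter chosen after seeing the data, 15 guidance genes were called higher in primed hESCs in place of 24. Under that filter 10.3% of all genes were called higher. A pseudocount of 0.1 gave 6 transducers called higher in hEPS cells in place of 3, and the share of all genes was not computed for that setting either. The median log2 change of the guidance genes in primed hESCs was 0.72 at the pseudocount of 0.1 and 0.33 with no filter, and in hEPS cells it was 0.060 after quantile normalization.

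Limits are set by the single column per group. No paired analysis was possible because the columns carry no replicate numbers and each group has 1 of them, and leaving out a replicate could not be run for the same reason. Among genes listed in both tables, a background chosen after seeing the data, 8.41% were called higher and 2.80% lower in hEPS cells, of 12763 genes. The counting intervals rest on the smallest read numbers that give a ratio and may be wider than the true reads would make them, and the spread between cultures is not known for any gene.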
